A study of Mus musculus with 19 samples.

Results

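The loss of Pou3f1 in the embryonic mouse retina was described across every gene that carries a p-value in the authors' knockout comparison, 24602 genes of the 26568 with a p-value in any comparison of the study. This comparison rests on 4 of the study's 19 RNA-seq libraries, all of whole retina from C57B6J embryos at E17.5, with 2 libraries labelled heterozygous and 2 labelled homozygous for the knockout. Both genotypes therefore carry the mutant allele, no wild-type embryo entered the comparison, and the labels do not describe the allele. In the study's other experiment, Gfp or Pou3f1 plasmids were electroporated into the eyes of wild-type CD1 pups on postnatal day 1, and GFP-positive cells were sorted and pooled after 48 h (3 Gfp and 3 Pou3f1 libraries) or 14 days (4 Gfp and 5 Pou3f1 libraries). The labels do not say that libraries of a group came from separate animals or litters, so the p-values reflect the spread among these 4 libraries alone, which may be technical.

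Pou3f1, also called SCIP, is a transcription factor with a POU-specific domain and a homeodomain, which together bind DNA elements related to the octamer motif. It is best known for its role in Schwann cells, where it controls the step into myelination. In the retina, ganglion cells send axons through the optic nerve to the brain, and those that cross the midline (contralateral) and those that stay on their own side (ipsilateral) express different transcription factors and guidance receptors. The embryonic retina also holds dividing progenitors and newborn amacrine cells, horizontal cells and cone photoreceptors. Amacrine and horizontal cells are the inhibitory interneurons of the retina, and whole-retina RNA reads all of these cells together.

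The values are the authors' own. The deposited table holds 1 log2 fold change, 1 p-value and 1 adjusted p per gene, with no value per library, so the depth of each library is unknown and the values of single libraries cannot be shown. All fold changes, p-values and adjusted p-values below were taken from the authors' deposited tables, and n is 2 libraries against 2 at E17.5. The table names no direction. It was fixed by the sign of Pou3f1, whose fold change is negative in the table and was taken to mean a lower level in the knockout. The table's name puts the heterozygote first, and every rise and fall below rests on this reading of Pou3f1 alone. The table's name and the labels of its samples differ in the embryonic day, and the day in the labels was used. Each error given after ± is an SE derived from the fold change and its p-value, assuming a two-sided normal test. The same derivation recovered the SE listed in both overexpression tables to within 0.0231%. The derived SE had a median of 0.108 and did not exceed 0.174 in any gene, so changes of thinly covered genes may be understated. All 20 ganglion cell markers and all 16 progenitor markers examined had an adjusted p, although without abundances the tissue could not be checked by level.

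Pou3f1 fell by 0.69 ± 0.11 on the log2 scale in the knockout, to 0.620 times the heterozygous level (adjusted p = 1.98e-08 in the authors' deposited table). Pou3f1 lies at chr4:124656807-124660655 on the plus strand of GRCm38. Around it, the retina changed in many genes by small amounts. Of 14821 genes with an adjusted p, 1487 passed an adjusted p under 0.05. These are called changed here, and 3233 genes had an unadjusted p under 0.05. The changed genes comprised 696 that rose (4.70%) and 791 that fell (5.34%). Their median log2 change was 0.34 among the risen and -0.42 among the fallen genes, against 0.00 over all genes with an adjusted p. Most changes were modest, and 83.1% of the called genes changed by less than 1.5-fold. At least 2-fold rises numbered 31 (0.209%) and at least 2-fold falls 26 (0.175%). These larger changes differed in kind, since 21 of the 31 rises but 3 of the 26 falls belonged to pseudogenes or predicted genes.

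**Figure D1:**
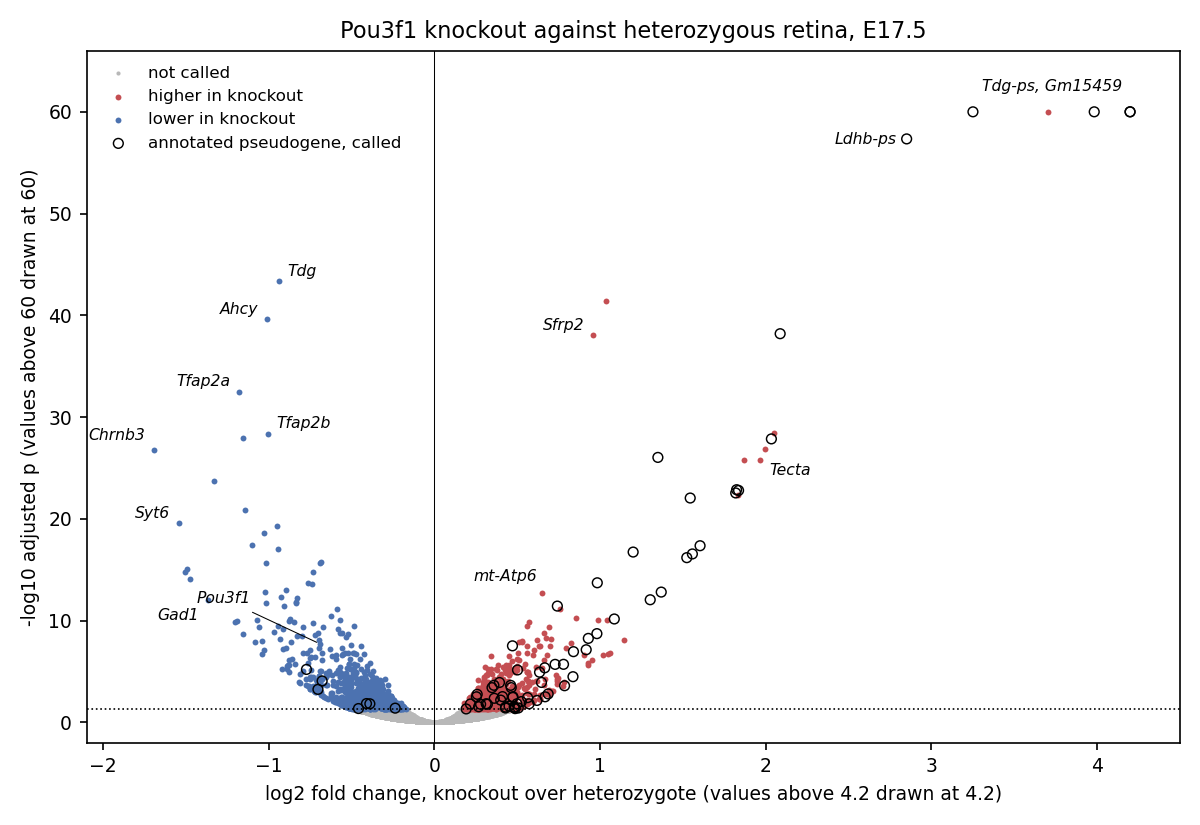
Log2 fold change of each gene with an adjusted p, knockout over heterozygote (x axis), against -log10 of the authors' adjusted p (y axis), with called genes in colour, annotated pseudogenes ringed and the dotted line at an adjusted p of 0.05. Amacrine genes such as Tfap2a and Gad1 lie at the far left, while the points at the far right are mostly ringed pseudogenes.

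Several of the genes that fell most in the authors' deposited table encode proteins of inhibitory neurons and of synapses. Chrnb3, a subunit of nicotinic acetylcholine receptors, fell by 1.70 ± 0.15 on the log2 scale, to 0.309 times the heterozygous level (adjusted p = 1.65e-27). Syt6, a synaptotagmin, fell by 1.54 ± 0.16 (adjusted p = 2.37e-20). Fezf1, a zinc finger transcription factor, fell by 1.48 ± 0.17 (adjusted p = 7.99e-15). The GABA-synthesising enzyme Gad1 fell by 1.36 ± 0.17. Dlg2, a scaffold protein of synapses, fell by 1.33 ± 0.12 (adjusted p = 1.97e-24). Other large falls were those of the lipid transporter gene Abca13 (-1.51), the copine Cpne4 (-1.16), Spsb1 (-1.16), the transcriptional corepressor Runx1t1 (-1.10), the potassium channel Kcnj10 (-1.08), the growth factor Igf1 (-1.06) and the retbindin gene Rtbdn (-1.04). Srp54b, at -1.19, encodes a subunit of the signal recognition particle. It has a near-identical neighbour, Srp54a (-0.41), and how reads were divided between them is uncertain.

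Genes of amacrine cells fell as a group in the authors' deposited table. Of 15 amacrine markers examined 11 had an adjusted p, and of these 10 fell and 0 rose. An unadjusted p under 0.05 was found for 10 of the 15. The median of the 11 was -0.62 against 0.00 over all genes, of which 5.34% fell. The transcription factors of this lineage fell together. Tfap2a fell by 1.18 ± 0.09 (adjusted p = 3.03e-33), while Tfap2b was at -1.01 ± 0.09 (adjusted p = 4.11e-29), Ptf1a, which directs progenitors toward amacrine and horizontal fates, at -0.62 and Prdm13 at -0.57. Genes of the inhibitory transmitters fell too, with Slc32a1, the vesicular transporter of GABA and glycine, at -0.93 ± 0.14 (adjusted p = 6.78e-09), Gad2 at -0.87 and the glycine transporter Slc6a9 at -0.38. The calcium-binding protein Calb2 (-0.53) and the homeobox gene Meis2 (-0.34) completed the fallen members. Pax6, which progenitors also express, was the member with an adjusted p that did not pass, at -0.15. The changed retina was read in bulk, where fewer cells of a type and less RNA per cell cannot be told apart.

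Some horizontal cell and photoreceptor precursor markers fell, and none rose. Among 8 horizontal cell markers 4 fell and 0 rose (median -0.33), and 2 fell at an adjusted p under 0.01. The fallen members included Tfap2b, which the amacrine list also holds, and the transcription factors Onecut1 (-0.36) and Prox1 (-0.31). Lhx1, a further horizontal cell factor, was at -0.35 and did not pass. Among 12 photoreceptor precursor markers 4 fell (33.3%) and 0 rose (median -0.25). These were Aipl1, a chaperone of phototransduction enzymes (-0.54), the cone transducin subunit Gnb3 (-0.51), Otx2 (-0.35) and Prdm1 (-0.34), of which the last pair are transcription factors of photoreceptor and bipolar fate. All 12 members lay below 0 in the authors' deposited table.

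Ganglion cell markers did not fall as a group. Of 20 markers 2 fell, 2 rose and 16 did not pass, with a median of 0.04 in the authors' deposited table. The transcription factor Pou4f2, an early factor of ganglion cells, rose by 0.35 ± 0.09 (adjusted p = 0.00321), and the RNA-binding protein Rbpms2 rose by 0.23 ± 0.08 (adjusted p = 0.0353). Pou4f3, a paralogue of Pou4f2, fell by 0.59 ± 0.16 (adjusted p = 0.00554), and Eomes, a T-box factor of a subset of ganglion cells, fell by 0.58 ± 0.14 (adjusted p = 0.00084). The axonal neurofilaments Nefl and Nefm were at 0.26 and 0.27, and Gap43 was at 0.01, none of them passing. Atoh7, the factor that makes progenitors competent to form ganglion cells, rose by 0.35 ± 0.11 (adjusted p = 0.0133).

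The list of genes of the contralateral program had 6 of 15 members lower (40.0%) and 0 higher in the authors' deposited table. Its median was -0.31. This list centres on the study's own subject and is no independent evidence of direction. Its 6 fallen members also count Pou3f1, whose fall was set by the choice of sign. The other fallen members were Igf1 (-1.06), the SoxC transcription factor Sox4 (-0.57 ± 0.08, adjusted p = 1.68e-09), the adhesion molecule Cntn2 (-0.33), the guidance ligand Slit2 (-0.31) and the semaphorin coreceptor Plxna1 (-0.22). Isl2, a transcription factor of contralateral ganglion cells, was at -0.32 and did not pass. Of 10 genes of the ipsilateral program 1 fell, the growth factor binding protein Igfbp5 (-0.51 ± 0.10, adjusted p = 5.92e-06). Zic2, the transcription factor that directs ipsilateral growth, was at -0.11, and Ephb1, its receptor target, at -0.21, neither passing. Whether the 2 programs differ was not tested. Among 10 members of the POU family with an adjusted p, Pou3f1, Pou4f3 and Pou6f1 fell and Pou4f2 rose. Here too the fall of Pou3f1 was set by the choice of sign. Pou6f1 (-0.70 ± 0.11, adjusted p = 8.63e-09) had a fold change close to that of Pou3f1. The closest relatives, Pou3f2 and Pou3f3, were at -0.40 and -0.34 and did not pass.

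Molecules of axon guidance fell in 16 of 61 genes (26.2%, against 5.34% over all genes) and rose in 0. The median was -0.17 in the authors' deposited table. In this list 54 of the 61 members lay below 0. Plxna2, a semaphorin receptor, fell by 1.03 ± 0.11 (adjusted p = 2.50e-19), and the semaphorin Sema5b by 1.02 ± 0.13 (adjusted p = 1.89e-12). The ephrin receptor Ephb3 fell by 0.57 ± 0.10 (adjusted p = 3.82e-06), and Draxin, a repulsive ligand for axons, by 0.43 ± 0.08 (adjusted p = 1.11e-05). Further receptors that fell were Epha4 (-0.54), Plxna4 (-0.50), Epha3 (-0.42) and Epha8 (-0.39). The midline receptors Dcc and Robo1, at -0.31 and -0.30, did not pass.

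Adhesion proteins of neurons fell in 17 of 47 genes (36.2%, against 5.34% over all genes) and rose in 1. The median was -0.23 in the authors' deposited table. The fallen members covered several families that bridge synapses or guide dendrites. Nrxn3, a presynaptic neurexin, fell by 1.02 ± 0.11 (adjusted p = 2.24e-16). The postsynaptic partners of neurexins, Nlgn2 and Nlgn3, fell by 0.42 and 0.34. The leucine-rich repeat protein Lrrtm1 fell by 0.69 ± 0.14 (adjusted p = 4.22e-05), the protocadherin Pcdh8 by 0.77 ± 0.14 (adjusted p = 1.47e-06) and the teneurin Tenm2 by 0.54 ± 0.11 (adjusted p = 2.14e-05). Slitrk6, Slitrk1 and Slitrk2, which organise synapses from the neuron surface, fell by 0.54, 0.53 and 0.50. The cadherin Cdh8 was the member that rose, by 0.48.

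In the authors' deposited table, genes of the synaptic vesicle cycle fell in 12 of 29 members (41.4%) and rose in 0. Over all genes 5.34% fell. All vesicle cycle members but Vamp1 (0.09) lay below 0, and the median was -0.24. Rims1, a scaffold of the release site, fell by 0.69 ± 0.13 (adjusted p = 8.03e-06). The vesicle proteins Syn3 and Sv2a fell by 0.65 ± 0.14 and 0.47 ± 0.09. The scaffold proteins Pclo and Bsn, which mark the active zone, fell by 0.42 and 0.34. Voltage-gated ion channels fell in 6 of 30 members and rose in 1. The T-type calcium channel Cacna1g led them (-0.83 ± 0.12, adjusted p = 2.85e-09), followed by the potassium channels Kcnq3 (-0.75) and Kcna2 (-0.42) and the calcium channel subunit Cacna2d3 (-0.60). Transmitter receptors fell in 6 of 34 members (17.6%). Nicotinic subunits made up 4 of the falls, Chrnb3, Chrna6 (-0.57), Chrnb2 (-0.37) and Chrna4 (-0.29). The AMPA receptor subunit Gria1 also fell (-0.92 ± 0.15, adjusted p = 5.51e-08). In the opposite direction, the metabotropic glutamate receptor Grm2 rose by 1.04 ± 0.14 (adjusted p = 7.95e-11), to 2.06 times the heterozygous level.

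Most progenitor markers did not pass, while DNA replication genes rose in the authors' deposited table. Among 16 progenitor markers, Sfrp2, a secreted Wnt modulator, rose by 0.96 ± 0.07 (adjusted p = 9.28e-39), the Notch target Hes1 fell by 0.19 ± 0.06 (adjusted p = 0.0321), and 14 did not pass (median 0.01). Of 26 DNA replication genes 20 rose (76.9%, against 4.70% over all genes) and 0 fell. Their median was 0.31, and all 26 lay above 0. Pcna, the sliding clamp of DNA polymerase, rose by 0.46 ± 0.09 (adjusted p = 8.58e-06), and Tyms, which makes thymidylate, by 0.43 ± 0.08 (adjusted p = 2.47e-06). The helicase subunits Mcm3 and Mcm5 rose by 0.34 ± 0.06 and 0.32 ± 0.06. The genes of mitosis did not move with them: 0 of 26 rose and 1 fell, the proliferation antigen Mki67 (-0.31 ± 0.10, adjusted p = 0.0199), with a median of 0.03. Whether replication and mitosis genes differ was not tested. Of 14 neurogenic progenitor genes, which mark cells about to leave the cycle, 5 fell (35.7%) and Atoh7 rose. The fallen members included the progenitor transcription factor Olig2, which fell by 0.48, the Notch ligand Dll3 by 0.46, Gadd45g by 0.45 and Hes6 by 0.17. In the Notch pathway 4 of 22 genes fell (18.2%, against 5.34% over all genes) and 0 rose, and 2 fell at an adjusted p under 0.01. The largest fall was that of the Notch effector Heyl (-0.59 ± 0.10, adjusted p = 6.22e-07), which lies 1407 kb from Pou3f1.

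Many genes that build ribosomes and the respiratory chain rose in the authors' deposited table. Of 77 cytosolic ribosomal protein genes 60 rose (77.9%, against 4.70% over all genes) and 0 fell, with a median of 0.33. Rps27a rose by 0.66 ± 0.10 (adjusted p = 1.45e-09), Rps23 by 0.57 ± 0.08 (adjusted p = 1.35e-10) and Rpl17 by 0.53 ± 0.08 (adjusted p = 9.11e-09). Ribosomal protein genes have many near-identical copies in the genome, so the division of reads among them is uncertain. Among the 29 without a matched copy 28 rose, and among the 48 with a matched copy 32 rose. Mitochondrial ribosomal protein genes rose in 10 of 45 members (median 0.18), with Mrpl13 at 0.35 ± 0.08. The mitochondrial genome encodes 13 respiratory chain subunits, of which 9 rose (median 0.61), from 0.56 for mt-Co1 to 0.73 for mt-Nd3. The smallest adjusted p among them was that of mt-Atp6, a subunit of ATP synthase (0.65 ± 0.08, adjusted p = 1.80e-13). Of the 13, 5 have a matched copy in the nuclear genome and 3 of these rose, while 6 of the 8 without a copy rose. Copies of mt-Atp6, mt-Nd3 and mt-Co1 were also called higher (Gm10925 at 0.51, Gm28438 at 0.74 and Gm29216 at 0.45). The division of reads between these genes and their copies is uncertain. Of 42 listed nuclear genes of the respiratory chain 16 rose and 0 fell (median 0.21), and all 42 lay above 0. The risen included Atp5e (0.57 ± 0.11), Uqcrq (0.46 ± 0.09) and Ndufa4 (0.43 ± 0.09). The list leaves out Ndufs5, a further nuclear gene of the chain, which fell by 0.30 ± 0.09 (adjusted p = 0.0212). Ndufs5 has a close copy that rose, as described below. Sterol and fatty acid synthesis rose in 5 of 28 genes (17.9%, against 4.70% over all genes). Among them were the desaturase Scd1 at 0.47 and the sterol enzymes Idi1 and Msmo1 at 0.42 and 0.38.

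Glycolytic and hypoxia-responsive genes moved down in 8 of 21 cases (38.1%, against 5.34% over all genes) and up in 0. The median was -0.21 in the authors' deposited table. The glycolytic enzyme Eno1 fell by 0.73 ± 0.10 (adjusted p = 1.52e-10), although this gene has a close copy that moved the other way, as described below. The neuronal glucose transporter Slc2a3 fell by 0.57 ± 0.11 (adjusted p = 1.03e-05), Bnip3, a protein of mitochondrial turnover, by 0.55 ± 0.12 (adjusted p = 0.000101), and Ndrg1 by 0.36 ± 0.08 (adjusted p = 0.00031). Gapdh, often used as a reference gene, was at 0.07. Heat shock and unfolded protein genes were split, with the mitochondrial chaperones Hspd1 (0.27) and Hspe1 (0.55) higher and the cytosolic chaperones Hspa8 (-0.95) and Hspa1a (-0.49) lower, 2 each of 20. None of 16 p53 target and cell death genes passed (median 0.01), with 1 of them under an unadjusted p of 0.05.

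Some regulators of neuronal RNA and chromatin also fell in the authors' deposited table. Of 21 genes of neuronal RNA processing 6 fell (28.6%, against 5.34% over all genes) and 1, Rbpms2, rose (median -0.22). The splicing regulators Celf4, Celf3 and Rbfox2 fell by 0.56 ± 0.08, 0.38 ± 0.09 and 0.31 ± 0.08, and the long noncoding RNA host gene Snhg11 by 0.65 ± 0.13. Of 38 genes of neuronal chromatin and Polycomb complexes 9 fell (23.7%) and 1, the Polycomb gene Cbx2 (0.27), rose (median -0.11). The transcription factors St18 and Bcl11b fell by 0.94 ± 0.10 (adjusted p = 8.22e-18) and 0.70 ± 0.14 (adjusted p = 2.58e-05), and the histone deacetylase Hdac9 by 0.51 ± 0.10 (adjusted p = 3.52e-05). Few genes of secreted signals were called. Bmp4 and Bmp2, growth factors of the dorsal eye among other sites, fell by 0.76 ± 0.17 and 0.51 ± 0.17. They were 2 of 19 genes of that pathway (10.5%, against 5.34% over all genes), and 1 fell at an adjusted p under 0.01. Of 21 neuropeptide and growth factor signal genes 3 fell (14.3%) and 0 rose. Among the fallen was Bdnf, a neurotrophin of ganglion cells, by 0.35 ± 0.11 (adjusted p = 0.0222). In the Wnt pathway 3 of 30 genes rose, 2 fell (6.67%) and 25 were not called. Over all genes 4.70% rose and 5.34% fell, so these are few calls and no direction is read from them. Sfrp1 (0.33), Sfrp2 and Nkd1 (0.50) rose, and Axin2 (-0.38) and Ror2 (-0.48) fell.

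Among genes without predicted names, those that rose most in the authors' deposited table included lens crystallins and a mixed set of others. H2ac15, a replication-dependent histone, rose by 2.05 ± 0.17 (adjusted p = 3.66e-29). Its family has near-identical members and is uncertain. Of 14 replication-dependent histone genes with an adjusted p 2 rose, H2ac15 and H2ac8 (0.93), and 2 fell, H2bc4 (-0.57) and H4c9 (-0.49). The median of the 14 was -0.04. Tecta, known as a component of the tectorial membrane of the inner ear, rose by 1.96 ± 0.17, to 3.90 times the heterozygous level (adjusted p = 1.46e-26). Crabp1, a retinoic acid binding protein gene, rose by 0.85 ± 0.12 (adjusted p = 5.40e-11). The laminin Lama3 (1.14), the myosin Myh7b (1.06) and the transcription factor Klf4 (0.99 ± 0.14, adjusted p = 8.57e-11) rose as well. Amd2 (0.95), which resembles another gene by name, is uncertain. Rpl32l (1.09) is annotated as a processed pseudogene of the ribosomal protein gene Rpl32, which rose by 0.50 ± 0.09, and is uncertain as well.

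Lens markers were higher in the knockout libraries, per the authors' deposited table. Of 18 lens genes with an adjusted p 13 rose and 0 fell, with a median of 0.67. The gamma crystallins, structural proteins of lens fibre cells, were highest, with Crygf at 2.00 ± 0.17 (adjusted p = 1.34e-27), Crygd at 1.87 ± 0.17 (adjusted p = 1.75e-26), Cryge at 1.05 ± 0.17 and Crygc at 1.02 ± 0.17. The lens channel Mip rose by 0.55, while the alpha crystallin gene Cryaa was at 0.32 and Bfsp2 at -0.14, neither passing. No abundance is listed, so the amount of lens RNA cannot be given, and its part in the other changes was not tested. Markers of several other cell types did not pass. Red blood cell (5 tested), skeletal muscle (4) and mesenchyme (9) markers had 0 called members, with 2, 1 and 0 at an unadjusted p under 0.05. The 12 microglia markers had 0 called and 2 at that limit, and all lay below 0 (median -0.17). Of 5 surface epithelium markers Cdh1 rose (0.49), of 8 pigment epithelium markers Tyrp1 fell (-0.56), and of 14 blood vessel markers 3 fell, led by Cldn5 (-0.68), a tight junction protein. Among 11 Müller glia markers Kcnj10, Crym (-1.02) and Apoe (-0.38) fell and Vim (0.25) rose, and among 7 astrocyte markers Pax2 (-0.50) and the glutamate transporter Slc1a2 (-0.46) fell. Over all genes 4.70% rose and 5.34% fell, and no direction is read from single calls in these short lists.

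**Figure D2:**
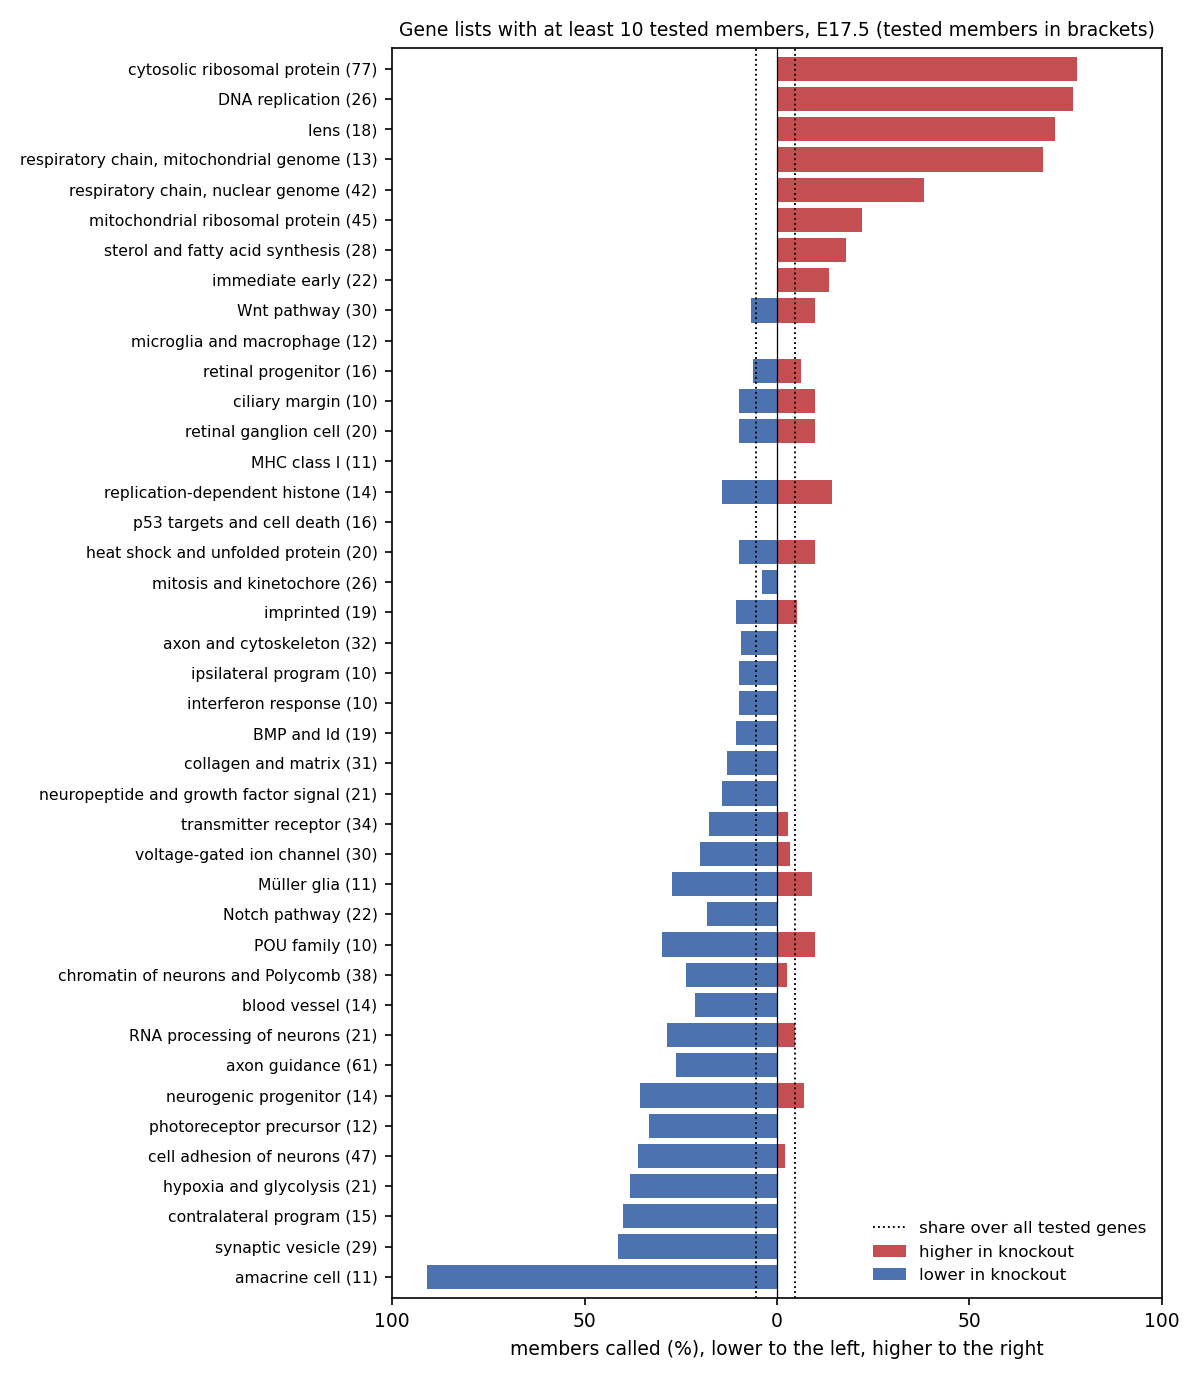
Share of each list's tested members called lower (left, blue) or higher (right, red) in the knockout, in percent, for lists with at least 10 members tested, with dotted lines at the shares over all tested genes (5.34% lower and 4.70% higher). Ribosomal protein, DNA replication, lens and respiratory chain genes lie at the top, and amacrine cell, synaptic vesicle and contralateral program genes at the bottom. The contralateral and POU family lists count Pou3f1, whose fall was set by the choice of sign.

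The risen and the fallen genes differed in length. Among protein-coding genes, the risen had a median coding length of 789 bases and a median gene span of 11.7 kb, and the fallen 1926 bases and 49.1 kb. Genes not called lay between, at 1434 bases and 25.1 kb. With the coding genes split by coding length into 4 groups of equal size, 9.96% of the shortest group rose and 2.80% fell, while 1.53% of the longest group rose and 9.37% fell. Split by gene span, the shortest group had 8.40% risen and 3.68% fallen genes, and the longest 2.26% and 9.87%. The gene groups differed in the same property, since ribosomal protein genes had a median coding length of 468 bases and axon guidance genes of 2961 bases. The 26 DNA replication genes had medians of 1850 bases and 15.8 kb, and the synaptic vesicle genes of 1737 bases and 47.3 kb. RNA quality values are not in the sources used here, and the part of length in these counts was not tested.

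**Figure D3:**
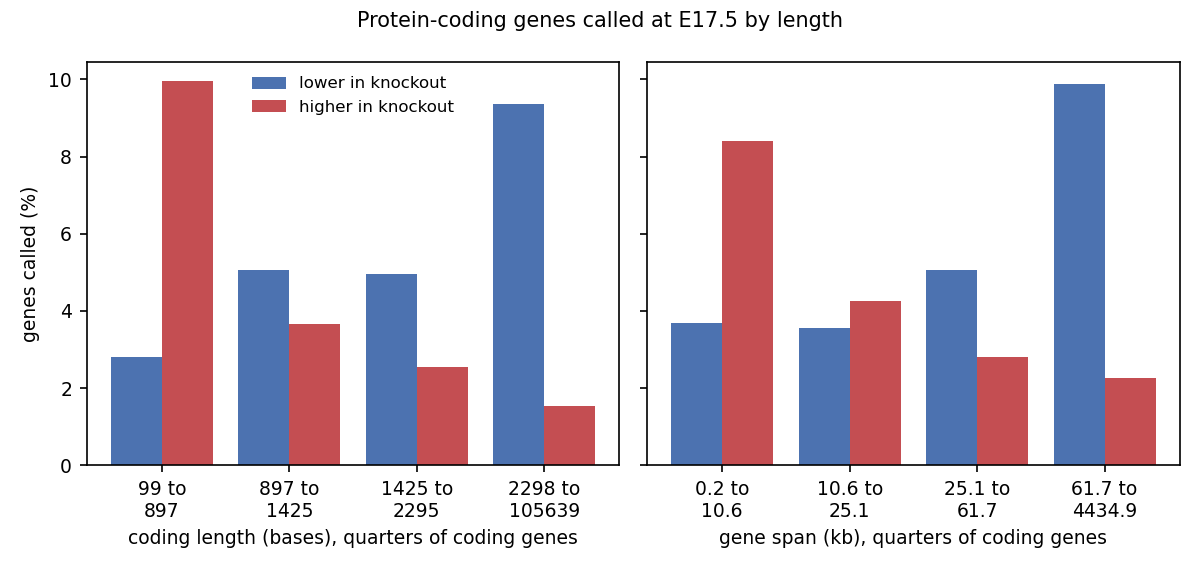
Share of protein-coding genes called lower (blue) or higher (red) in the knockout, in percent, in 4 groups of equal size by coding length in bases (left) and by gene span in kb (right). The share of risen genes goes down from 9.96% to 1.53% with coding length, and the share of fallen genes is highest in the longest group, at 9.37%.

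Pseudogenes rose more often than coding genes, and some of the largest changes of all lay in copies of coding genes. Of 644 pseudogenes with an adjusted p 66 rose (10.2%) and 7 fell (1.09%), against 4.43% and 5.55% of 14138 protein-coding genes. A search for the closest coding gene matched 610 of 1150 pseudogenes and predicted genes. Of the 74 matched copies that rose, the coding gene rose with 24, fell with 5 and was not called with 45. Gm15459 and Gm5575, which resemble the chaperone gene Hspa8, rose by 9.17 and 3.25, while Hspa8 fell by 0.95 ± 0.10 (adjusted p = 4.68e-20). Tdg-ps rose by 5.77, while Tdg, a DNA repair glycosylase of the demethylation pathway, fell by 0.94 ± 0.06 (adjusted p = 4.05e-44). Gm8483 rose by 1.54, while Eno1 fell by 0.73, and Ndufs5-ps rose by 0.98, while Ndufs5 fell by 0.30. For other large rises the coding gene was not called, as for Gm11868 at 3.98 with Cyb5r4 at -0.07, and Ldhb-ps at 2.85 with Ldhb at -0.11. Reads of a gene and its near-identical copy cannot be told apart with certainty, so the changes of Hspa8, Tdg, Eno1 and Ndufs5 and of these copies are uncertain. Gm11868 lies on chromosome 4, as Pou3f1 does. Gm15459 and Gm5575 lie on chromosome 5, Tdg-ps on 15, Ldhb-ps on 19, Gm8483 on 14 and Ndufs5-ps on 16. The labels describe neither the allele nor the litters and sex of the embryos. Differences between the groups in strain background therefore cannot be told apart from the loss of Pou3f1 in these rises, and their part was not tested. The amacrine, synaptic vesicle and axon guidance lists hold no gene with a matched copy.

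**Figure D4:**
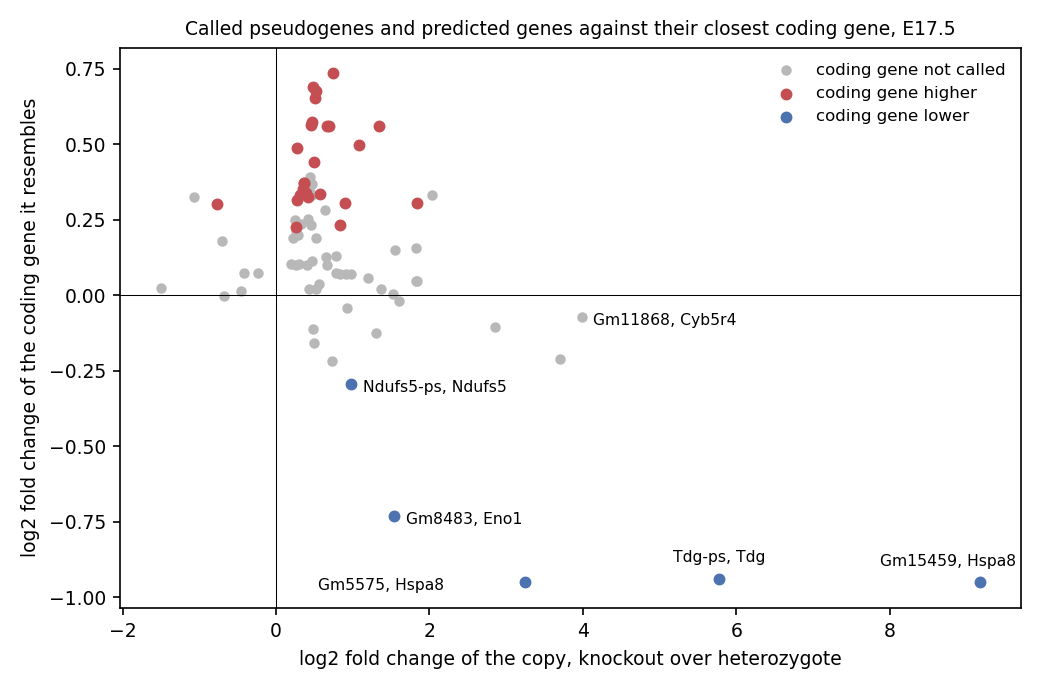
Log2 fold change of each called pseudogene or predicted gene with a matched coding gene (x axis) against that of the coding gene (y axis), knockout over heterozygote, with the coding gene's call in colour. The blue points at the lower right are copies that rose while Hspa8, Tdg, Eno1 or Ndufs5 fell.

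Changed genes were found on every nuclear chromosome but the Y. On chromosome 4, which carries Pou3f1, 56 of 921 genes rose and 56 fell (12.2%). Other nuclear chromosomes ranged from 6.24% on the X to 14.0%, leaving aside the Y with 0 of 6. Within 10 Mb of Pou3f1, 36 of 260 genes were called (13.8%), 21 higher and 15 lower, against 1487 of 14821 over all genes. Within 1 Mb 5 of 24 genes other than Pou3f1 were called (20.8%), 2 higher and 3 lower, the highest share of the distance intervals and one that rests on few genes. Fhl3, the nearest called gene at 40.0 kb, rose by 0.38 ± 0.12 (adjusted p = 0.0234), and the splicing factor gene Sf3a3 at 54.1 kb rose by 0.19 ± 0.06 (adjusted p = 0.0289). At 220 kb the ephrin receptor gene Epha10 fell by 0.73 ± 0.15 (adjusted p = 3.45e-05), and at 1407 kb on the other side Heyl fell by 0.59. The distance intervals from 1 Mb outward had between 9.68% and 14.1% of genes called.

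The octamer ATGCAAAT, the motif from which the Oct factors take their name, was searched on both strands (ATTTGCAT on the opposite strand). RefSeq promoters of GRCm38.p6, taken from 250 bases before to 50 bases after the start, held it in 1.75% of all 27025 genes and in 1.35% of the 11184 matched genes with an adjusted p. It was found in 10 of 572 fallen genes (1.75%, exact 95% interval 0.841% to 3.19%), in 5 of 482 risen genes (1.04%, 0.338% to 2.40%) and in 1.34% of genes not called. The intervals cover counting error only and include the share over genes not called. A match is a description of sequence and not a binding site. The 250 bases before the start are shown for 3 genes with a match, the octamer in capitals and read toward the start, because among changed genes with a match Rgs4 had the largest fall and Sfrp2 the largest rise, and Pcdh8 is one of the fallen adhesion genes.
Rgs4: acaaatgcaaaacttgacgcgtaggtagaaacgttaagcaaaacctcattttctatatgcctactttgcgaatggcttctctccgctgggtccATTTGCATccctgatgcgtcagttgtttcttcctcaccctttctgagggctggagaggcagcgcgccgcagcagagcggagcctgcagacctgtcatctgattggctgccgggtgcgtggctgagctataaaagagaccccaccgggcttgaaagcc
Pcdh8: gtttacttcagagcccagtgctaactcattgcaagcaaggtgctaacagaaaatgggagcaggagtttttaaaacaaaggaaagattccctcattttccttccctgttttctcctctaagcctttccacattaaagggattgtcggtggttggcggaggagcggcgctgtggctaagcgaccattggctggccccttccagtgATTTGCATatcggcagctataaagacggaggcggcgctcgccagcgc
Sfrp2: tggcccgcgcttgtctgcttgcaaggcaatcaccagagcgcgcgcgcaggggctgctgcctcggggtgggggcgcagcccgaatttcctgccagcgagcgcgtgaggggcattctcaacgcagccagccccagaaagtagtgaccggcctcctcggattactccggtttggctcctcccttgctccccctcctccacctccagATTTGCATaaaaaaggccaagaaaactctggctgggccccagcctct
The window of Rgs4, a regulator of G protein signalling that fell by 0.97 ± 0.14 (adjusted p = 1.17e-09), lies at chr1:169747643-169747892 on the minus strand, with the octamer 157 bases before the start. That of Pcdh8 lies at chr14:79771313-79771562 on the minus strand and that of Sfrp2 at chr3:83766071-83766320 on the plus strand, each with the octamer 47 bases before the start. The motif was thus present in front of fallen and of risen genes.

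Genes that changed on loss of Pou3f1 were then followed in the cells given extra Pou3f1, in tables that share no library with the knockout comparison. At 48 h the genes that fell in the knockout were more often lower than higher in Pou3f1 cells. Over the 14077 genes that have an adjusted p at both E17.5 and 48 h, 1.46% were higher and 1.58% lower in Pou3f1 cells. Of the 768 genes that fell in the knockout 17 were higher (2.21%) and 68 lower (8.85%), the latter being 30.6% of the 222 genes lower at 48 h. Of the 639 genes that rose in the knockout 19 were higher (2.97%) and 4 lower (0.626%). The 19 included 8 genes encoded by the mitochondrial genome, and the count without such genes and pseudogenes is given further below. At 14 days the fallen genes were more often higher than lower, as were the risen genes and all genes. Over the 14555 genes with an adjusted p at E17.5 and at 14 days, 12.9% were higher and 9.68% lower in Pou3f1 cells, and of the 781 fallen genes 163 were higher (20.9%) and 90 lower (11.5%). Of the 655 risen genes 92 were higher (14.0%) and 40 lower (6.11%). The 163 genes make up 8.67% of the 1881 genes higher at 14 days. The share called at E17.5 also differed with level. With coding genes split by mean count at 48 h into 4 groups, 3.62% of the lowest group fell and 2.82% rose. In the highest group 7.89% fell and 6.07% rose, and the part of level in these overlaps was not tested.

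**Figure D5:**
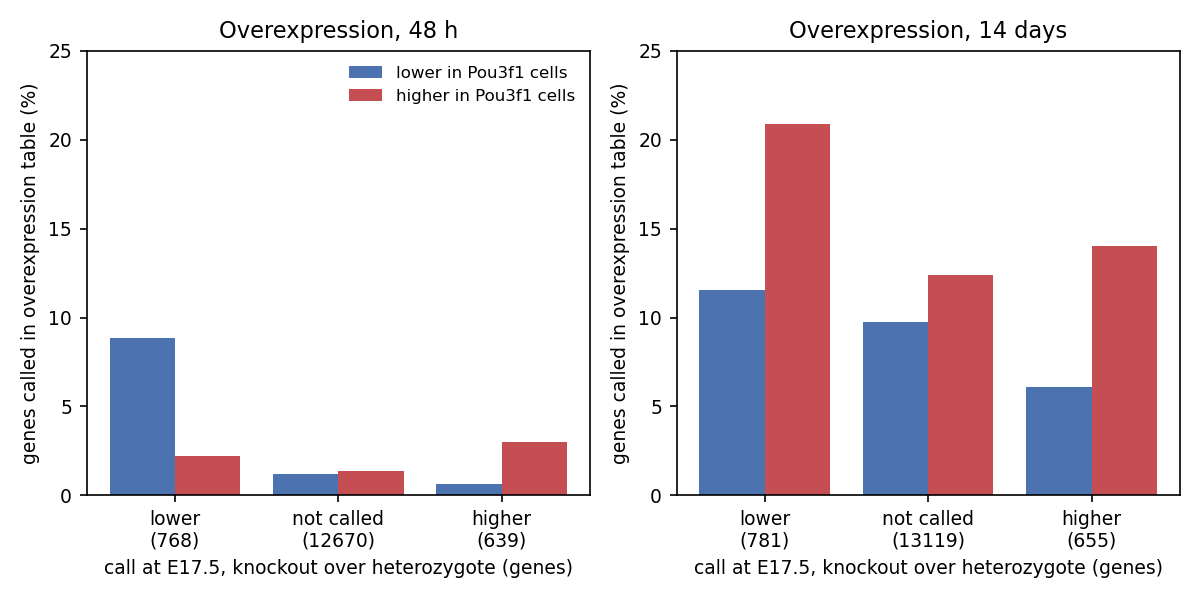
Share of genes called higher (red) or lower (blue) in Pou3f1 cells than in Gfp cells, in percent, at 48 h (left) and 14 days (right), for genes that were lower, not called or higher in the knockout, with the number of genes in brackets. At 48 h the highest bar is that of genes lower in both, at 8.85%, and at 14 days that of genes lower in the knockout and higher in Pou3f1 cells, at 20.9%.

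Among 762 fallen genes tested in all 3 tables, 10 were higher in Pou3f1 cells at both times in the authors' deposited tables, or 9 without Pou3f1, whose own direction was set by the choice of sign and by the plasmid. They included Eomes, Slitrk1, Pcdh7, Cdh10, Cdkn1c, Dner, Flrt3 and Cntn2. Most of these encode adhesion proteins of the neuron surface. The shares of all 14002 genes with this pattern, and with the 3-table patterns below, are not given here. No excess over all genes is read from these counts. Eomes, at -0.58 in the knockout, was at 1.34 ± 0.24 at 48 h and at 3.07 ± 0.26 at 14 days. The cell cycle inhibitor Cdkn1c was at -0.40 in the knockout, 0.63 ± 0.17 at 48 h and 0.34 ± 0.10 at 14 days. Pou3f1 itself was at 0.91 ± 0.26 and 5.57 ± 0.27 in the same tables. At 48 h alone, the genes lower in the knockout and higher in Pou3f1 cells included Crym, a thyroid hormone binding protein (-1.02 and 0.57), Pou6f1 (-0.70 and 0.58) and Lrrtm1 (-0.69 and 0.60). At 14 days they included Gad1 (-1.36 and 0.82), Sema5b (-1.02 and 0.60), Runx1t1 (-1.10 and 0.74), St18 (-0.94 and 0.62) and Auts2, a Polycomb-associated regulator of neuronal genes (-0.69 and 0.71). Tfap2a, Tfap2b and Slc32a1, which fell with Gad1, were at 0.38, 0.09 and 0.55 at 14 days and did not pass there. Sox4, of the contralateral list, was at -0.57 in the knockout and at 1.37 ± 0.18 at 14 days, and Bcl11b at -0.70 and 2.01 ± 0.30.

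Other genes moved the same way whether Pou3f1 was lost or added. Fallen genes that were lower at both times of overexpression also numbered 10, among them Inka2 (-0.69 in the knockout, -1.03 at 48 h and -0.39 at 14 days), Eno1 and Slc1a2. At 48 h the genes lower in both experiments included Dlg2 (-1.33 and -0.92), Plxna2 (-1.03 and -0.84), Nrxn3 (-1.02 and -0.98) and Heyl (-0.59 and -1.02). Prdm1 (-0.34) and Pde3a (-0.83), a phosphodiesterase, fell in the knockout, were lower at 48 h (-0.75 and -0.68) and higher at 14 days (0.43 and 0.78), a pattern of 9 genes. Genes that rose in the knockout, were higher at 48 h and lower at 14 days numbered 8, all encoded by the mitochondrial genome, with mt-Nd1 at 0.70, 1.04 and -0.32. The 4 genes that rose in the knockout and were lower at 48 h were Atoh7 (0.35 and -0.89), Nkd1 (0.50 and -0.74), Plekha2 (0.43 and -1.19) and the matrix protease Mmp2 (0.48 and -0.82). Klf4 rose in both experiments, by 0.99 in the knockout and by 1.22 ± 0.28 at 48 h. The experiments differ in age, strain and cells, since the knockout was read in whole embryonic retina and overexpression in sorted postnatal cells.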

How the data were processed

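RNA-seq was measured in 2 heterozygous and 2 homozygous knockout whole retinas at E17.5, with overexpression tables of 48 h and 14 days used for comparison. Salmon, DESeq2, MACS2 and the mm10 build are named per the submitters' processing notes. Versions, the design formula and filters on low counts were not given in the sources used here. Both the log2 fold changes and their significance were deposited by the authors, the latter as p-values and adjusted p-values. The recomputed Benjamini-Hochberg adjustment differed from the deposited adjusted p by at most 1.73e-06, and 9781 genes with a p-value have no adjusted p. The signal used from the overexpression tables is the authors' deposited mean normalized count. It was used as a filter in an alternative and, at 48 h, to split coding genes by level. The score in those tables, which the authors deposited as a Wald statistic per the file headers, was not used.

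No test was added, since no values per library are listed. Genes were called at the authors' adjusted p under 0.05. Each SE at E17.5 was derived from the fold change and p-value, except for 2 genes with a p-value of 0. Lists were described by counts and medians. The members and the 51 lists were chosen with earlier results of these data known. Named genes were Pou3f1, the 15 largest rises and falls among called genes without predicted names, up to 4 called genes per list by adjusted p, up to 8 per pair of directions shared with overexpression, and the 8 called genes nearest to Pou3f1. Other list members, Srp54a, Rgs4, the copies and their coding genes, and genes shared by all 3 tables were named after their values were seen. The GENCODE mouse release 21 annotation (GRCm38, the mm10 assembly) held the identifiers of 99.4% of genes and gave gene type, position, coding length and GC content. BLAST 2.17.0 matched copies to coding genes at an expect value up to 1e-10, an identity of 80% or more and a cover of 50% or more of the copy. Promoter intervals are exact binomial intervals at 95%. Scripts, tested on simulated data, used numpy 2.4.6, pandas 2.3.3, matplotlib 3.10.9 and scipy 1.17.1 in Python 3.11.15. Alternatives tried were coding genes only, adjustment over all genes with a p-value, a 2-fold limit, a limit of 0.01 on the adjusted p, genes outside chromosome 4, and a mean count of at least 10 in an overexpression table. Removal of copies with the genes they resemble, and of mitochondrially encoded genes with pseudogenes, were added after the data were seen. Genes of X inactivation are not analysed here, and some genes that the naming rule takes are not reported here.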

Additional observations from a re-analysis of the deposited data

How the results depend on the processing

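At an adjusted p under 0.01, 412 genes were higher and 462 lower in the knockout, and with a 2-fold limit 31 and 26. Lists with more than 2 times the share over all genes numbered 16 higher and 22 lower, and with the 2-fold limit 3 and 8. At an adjusted p under 0.01 in both tables, genes lower in the knockout were lower at 48 h in 20 cases, higher at 48 h in 7, lower at 14 days in 29 and higher at 14 days in 59. Genes higher in the knockout were then lower at 48 h in 1 case, lower at 14 days in 17 and higher at 14 days in 29. Without genes of the mitochondrial genome and pseudogenes, a choice made after seeing the data, 8 genes in place of 19 were higher in both the knockout and the 48 h table. At an adjusted p under 0.01 the share called was 6.15% within 10 Mb of Pou3f1 and 6.62% on chromosome 4, and 7.92% of pseudogenes were higher. A stricter limit calls fewer genes by construction. Of 61 alternatives to the main counts and shares 44 stayed within 1.5 times. Of 306 alternative counts over the gene lists 212 stayed within 1.5 times and 94 did not, 56 of these under the 2-fold limit, 26 at an adjusted p under 0.01 and 12 under adjustment over all genes with a p-value. At an adjusted p under 0.01, axon guidance genes lower went from 16 to 9, contralateral genes from 6 to 3, neurogenic progenitor genes from 5 to 2, horizontal cell genes from 4 to 2, glycolysis genes from 8 to 5 and Notch genes from 4 to 2, and genes higher from 16 to 10 in the nuclear respiratory chain and from 10 to 6 among mitochondrial ribosomal proteins. Under adjustment over all genes with a p-value, Notch genes lower also numbered 2. No paired analysis was possible because the 2 genotypes share no replicate number and the tables hold no values per library, and leaving out a library was not possible for the same reason. Depth per library is unknown, so small changes in thinly covered genes may have gone undetected.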

Other observations

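Gene families that share a symbol stem were described beyond the lists above, with families of at least 15 tested members chosen after their values were seen and no test applied. Beside the 4.70% of genes higher and 5.34% lower over all genes in the authors' deposited table, histone demethylases of the Kdm family were lower in 6 of 16 members and higher in 0. These were Kdm6b, Kdm4b, Kdm5b, Kdm7a, Kdm3a and Kdm8, with Kdm6b, which removes a Polycomb mark, at -0.32 ± 0.07. Kinesin motors were lower in 9 of 35 members and higher in 1, with Kif26a at -0.48 ± 0.08 and Kif21a, a motor of axons, at -0.36 ± 0.08. Sox transcription factors were lower in 4 of 15, namely Sox4, Sox8, Sox5 and Sox6, with Sox5 at -0.88 ± 0.17. Phosphodiesterases were lower in 4 of 22 members, with Pde1b at -0.26 ± 0.07, and rho exchange factors of the Arhgef family in 5 of 24. G protein-coupled receptors with a Gpr symbol were lower in 6 of 39, with Gpr37 at -0.42 ± 0.10.

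In the other direction, translation initiation factors of the Eif stem were higher in 8 of 54 members and lower in 1, with Eif5a at 0.26 ± 0.06. The lower member was Eif3j1, and the higher members included Eif3j2. These resemble each other by name, and how reads were divided between them is uncertain. Dual-specificity phosphatases, which switch off MAP kinases, were higher in 4 of 21 members and lower in 2, with Dusp6 at 0.24 ± 0.07. Among the largest families, zinc finger genes of the Zfp stem were higher in 4 and lower in 11 of 365, and Ccdc genes higher in 2 and lower in 2 of 109.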
